A study of Oryza sativa with 12 samples.

Results

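The glutathione S-transferases of rice (Oryza sativa) were followed in a pair of near-isogenic lines grown with and without hot nights while their grains were filling. The members were all genes whose annotation in the expression table contained the words glutathione S-transferase or glutathione transferase, with 1 entry kept for each gene name, and they numbered 76 of 50708 listed loci. One line, XN0437S, is heat-sensitive and the other, XN0437T, is heat-tolerant; both were compared between control and high night temperature stress, called night heat here, with 3 libraries in each of the 4 groups. No age, temperature or length of stress is given in the labels, and the sampled material is named only as rice. The labels do not say whether replicate libraries came from different plants, so the spread that p-values rest on may be technical.

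Glutathione S-transferases join the tripeptide glutathione to reactive or foreign molecules, and the resulting conjugates can be pumped into the vacuole by ABC transporters of the C group. Plants have large families of the tau and phi classes, which are known for herbicide detoxification and stress responses. Smaller classes do other work: dehydroascorbate reductases (DHAR) use glutathione to recycle oxidised vitamin C, zeta enzymes isomerise an intermediate of tyrosine breakdown, and theta enzymes can reduce organic hydroperoxides. Many tau and phi genes lie in tandem runs of near copies, so the reads of neighbours can be hard to assign.

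Libraries held 85496090 to 100353570 counts, and among small counts, from 1 to 20, multiples of 4 made up 39.1% over all loci and 43.3% in the family. How many counts a sequenced fragment stands for is not stated, which limits the precision of low values. Transcripts of the filling grain were abundant in every library: the storage globulin gene Glb1 stood at 1623 to 6277 FPKM (fragments scaled to transcript length and library size, which allows levels of different genes to be compared) and the embryo and aleurone oleosin gene OLE16 at 880.3 to 1538. Green tissue transcripts were present too, since the summed level of 12 chlorophyll a-b binding protein entries was 408 to 424 FPKM in the sensitive control and 569 to 602 under night heat, and 386 to 404 and 512 to 529 in the tolerant line. Another green tissue marker, the gene RCA, was lower under night heat. It stood at 87.3 to 91.9 FPKM in the sensitive control and 75.4 to 82.7 under night heat. In the tolerant line it stood at 116 to 128 and 69.2 to 76.1 FPKM. The cytosolic chaperone gene HSP90 (LOC_Os04g01740) ran from 0.201 to 0.554 FPKM in control libraries and from 100.1 to 154 under night heat. These markers moved with the treatment in both lines, and their part in the results on the family was not tested.

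The family was expressed very unevenly. Members were ranked by their mean FPKM over all libraries, night heat included. A mean of at least 10 FPKM was reached by 7 members, 22 lay between 1 and 10 FPKM, 38 were below 1 FPKM, and 9 were listed without signal in every library. The highest was LOC_Os05g02530, annotated as the cytosolic dehydroascorbate reductase DHAR1, at 85.2 FPKM. Next came LOC_Os01g55830, a phi member annotated as GSTF2, at 69.3 FPKM, and then LOC_Os01g27630 and LOC_Os09g29200, whose annotations name no class, at 36.3 and 29.0 FPKM. The zeta member LOC_Os03g17470 followed at 22.4 FPKM, ahead of the tau members LOC_Os07g28480 at 17.97 and LOC_Os10g22070 at 15.6 FPKM. By the wording of the annotation the family held 24 tau, 10 phi, 9 theta, 3 zeta and 2 DHAR genes, 1 gene each of the lambda, TCHQD and microsomal kinds, and 25 genes for which no class was given. Class names follow this wording throughout. Tau was the most numerous named class, yet its highest member stood below a DHAR, a phi and a zeta gene and the leading genes without a class.

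**Figure D1:**
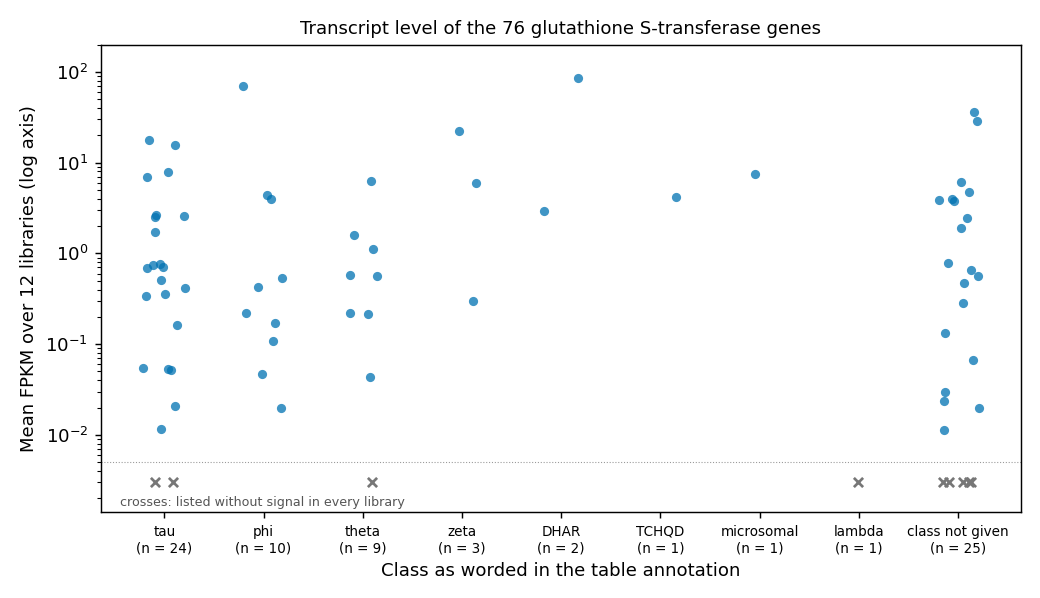
Mean FPKM over the 12 libraries on a log axis for each of the 76 members, by annotated class; each point is a gene and crosses mark the 9 genes listed without signal in every library. The DHAR gene at 85.2 FPKM and the phi gene at 69.3 FPKM stand above all others, while most tau genes lie below 10 FPKM.

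Added over all members, the FPKM of the family were higher under night heat in both lines. FPKM of loci in general moved the same way. On log2(FPKM + 0.1) the median log2 fold change over all loci that passed the FPKM filter was 0.42 in the sensitive and 0.34 in the tolerant line. Whether the family differs from this general shift was not tested. The family sums were 310.2 ± 5.89 FPKM in the sensitive control and 455.5 ± 16.6 under night heat (SD, n = 3 here and below). In the tolerant line they were 301.8 ± 5.38 and 436 ± 6.44. The share of DHAR in this sum was 13.4 ± 0.808% in the sensitive control and 31.5 ± 0.820% under night heat, and in the tolerant line 11.2 ± 0.240% and 30.6 ± 0.639%. Members of no given class went the other way, from 36.6 ± 0.715% to 19.2 ± 0.273% in the sensitive line and from 31.9 ± 0.741% to 19.0 ± 0.333% in the tolerant line. The 2 genes with the highest mean over all 12 libraries, DHAR1 and GSTF2, held 28.4 ± 0.633% of the sum in the sensitive control and 51.7 ± 0.901% under night heat. In the tolerant line they held 27.1 ± 0.546% and 48.7 ± 0.985%. Night heat libraries entered this ranking, which favours genes that are higher there, so part of the pair's larger share is built in. The libraries of the 2 treatments did not overlap in any of these shares, which were not tested. The direction of the sum without its top gene depended on the scale. In TMM-scaled counts relative to library size (CPM), the scale of all tests below, the tested members summed to 614 ± 11.8 and 698 ± 16.1 in the sensitive line and 578 ± 3.02 and 667 ± 2.93 in the tolerant line. Without LOC_Os05g02530 these sums were lower under night heat, at 531 ± 9.91 and 474 ± 7.19 CPM in the sensitive line and 515 ± 2.30 and 459 ± 3.63 in the tolerant line. In FPKM the sums without this gene were still higher, at 271 ± 3.18 and 315 ± 7.99 in the sensitive line and 270.3 ± 5.09 and 306 ± 2.93 in the tolerant line. In bulk samples, fewer cells of a type and less RNA per cell cannot be told apart.

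**Figure D2:**
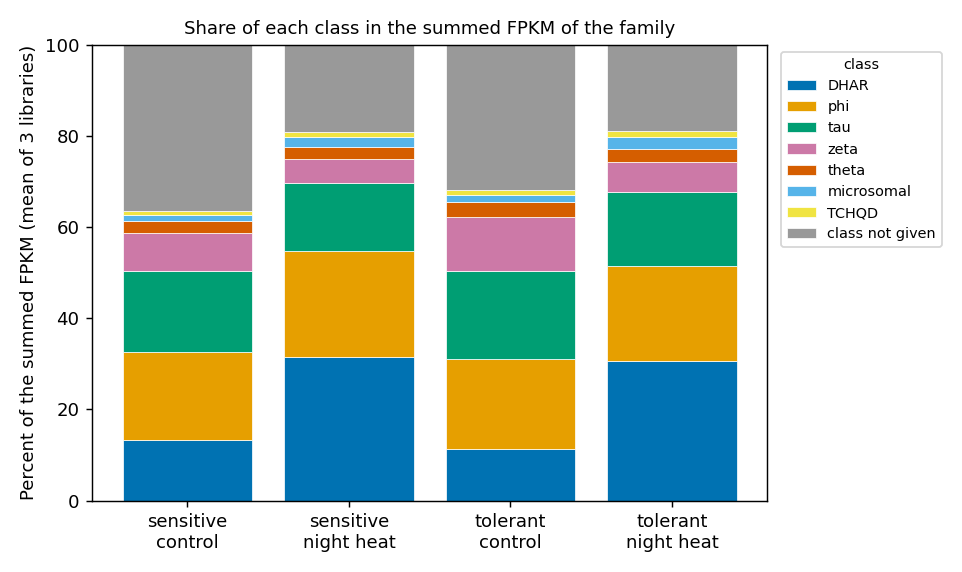
Percent of the summed FPKM of the family held by each annotated class, as the mean of 3 libraries in each of the 4 groups; the lambda gene had no signal. DHAR fills 13.4% and 11.2% of the control bars and 31.5% and 30.6% of the night heat bars, while the share of genes with no given class is smaller under night heat.

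Counts were sufficient to test 59 members. Under night heat the sensitive line had 12 risers and 13 fallers, which is 42.4% of those tested, and the tolerant line 11 risers and 16 fallers, or 45.8%. Over all 33281 tested loci the same rule (edgeR quasi-likelihood test, Benjamini-Hochberg adjusted p under 0.05, no minimum fold) called 32.1% in the sensitive line, 16.3% higher and 15.9% lower, and 33.2% in the tolerant line, 16.7% higher and 16.6% lower. A change of at least 2-fold was reached by 10 called members in the sensitive and 14 in the tolerant line. The median log2 fold change of the members was 0.00 in the sensitive and -0.09 in the tolerant line, beside 0.04 and 0.05 over all tested loci. The 2 comparisons share no libraries, and 10 members rose and 12 fell in both lines, 3 were called in the sensitive line only, 5 in the tolerant line only and none in opposite directions. No share of all loci was computed for these counts or for the 2-fold ones, so whether they are unusual is not known. Scaling changed the split of directions: with library totals alone, which moved the median of all loci to 0.46 and 0.37, the calls were 17 higher and 6 lower in the sensitive line and 16 higher and 12 lower in the tolerant line. Over all loci the same scaling gave 31.1% higher and 6.1% lower in the sensitive and 27.5% higher and 8.31% lower in the tolerant line, so the split of all loci moved too. Rises below are therefore larger and falls smaller with library totals. All 12 and 11 rises were called again with that scaling, but only 6 of the 13 and 12 of the 16 falls.

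**Figure D3:**
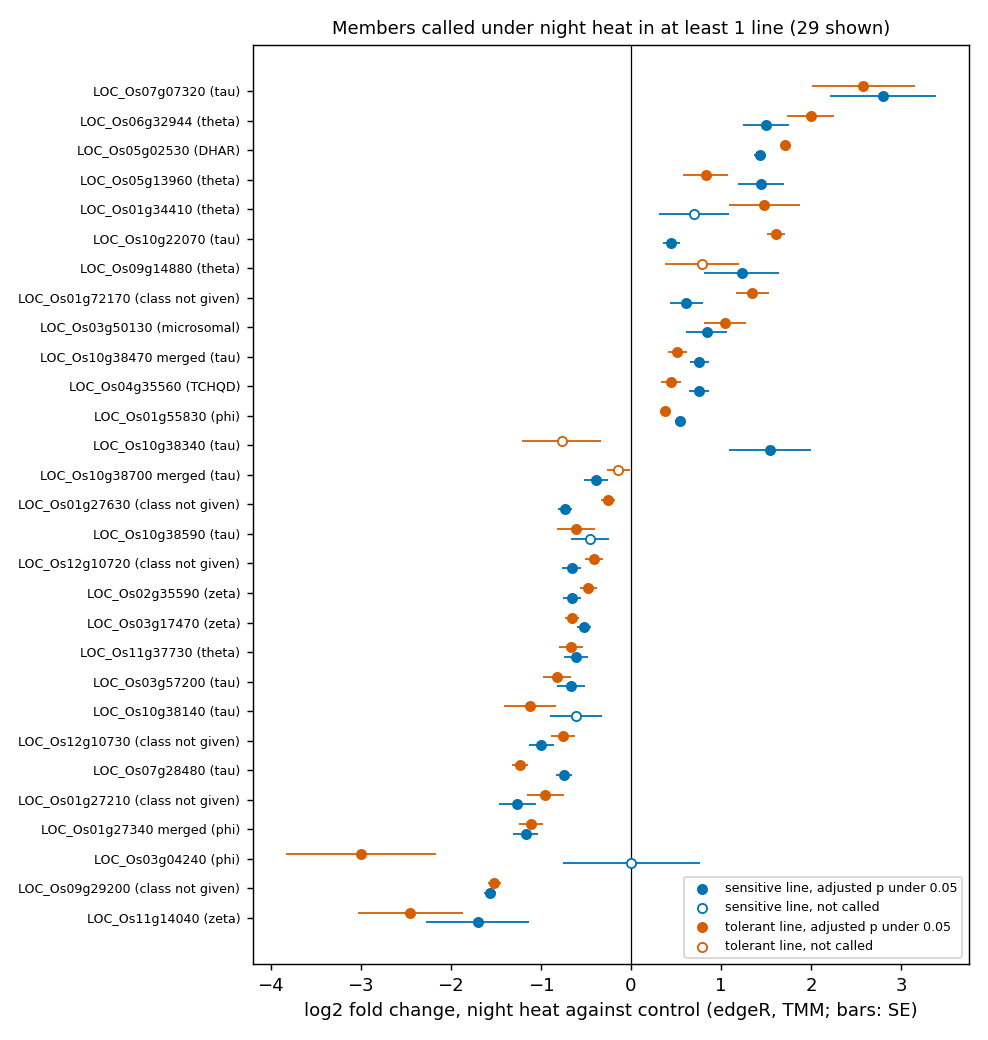
Fitted log2 fold change of night heat against control with its SE for 29 members called in at least 1 line; filled points passed an adjusted p under 0.05 (edgeR) and open points did not. Most pairs of points lie on the same side of 0, with DHAR1 at 1.43 and 1.72 and the tau gene LOC_Os10g38340 at 1.54 and -0.77; LOC_Os03g44170, at 0 counts in 1 group, is left out.

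The member with the highest mean FPKM over all libraries, night heat included, rose in both lines. LOC_Os05g02530, the DHAR1 gene on chromosome 5 (876950 to 880628, minus strand), had 84.2, 75.9 and 88.2 CPM in the sensitive control and 216, 235 and 219 under night heat. In the tolerant line its CPM values were 64.0, 61.4 and 64.4 in control and 213, 203 and 208 under night heat. Night heat libraries lay above all controls, and the log2 fold change was 1.43 with an SE of 0.06 (edgeR adjusted p = 6.53e-09) in the sensitive and 1.72 ± 0.06 (SE here and below; adjusted p = 8.36e-10) in the tolerant line. The other dehydroascorbate reductase, LOC_Os06g12630, annotated as the chloroplastic DHAR2, had a mean of 10.7 ± 1.64 CPM in the sensitive control and 9.93 ± 1.11 under night heat. Its means in the tolerant line were 9.18 ± 0.457 and 10.1 ± 1.58 CPM, the groups overlapped in both lines and neither comparison passed the test (edgeR adjusted p = 0.654 and 0.534). DHAR2 lies outside the rule for named genes and was chosen after its values were seen.

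Of 8 tested phi genes, 1 was called higher and 1 lower in the sensitive line, and 1 higher and 2 lower in the tolerant line. LOC_Os01g55830, annotated GSTF2, was at 97.4, 94.4 and 93.1 CPM in the sensitive control and at 135, 141 and 139 under night heat. Its tolerant libraries held 87.9, 94.7 and 92.9 CPM in control and 119, 117 and 122 under night heat. The groups did not overlap, and the log2 fold change was 0.54 ± 0.05 (adjusted p = 5.04e-06, edgeR) and 0.38 ± 0.05 (adjusted p = 9.81e-05), or 0.96 ± 0.07 and 0.69 ± 0.07 with library totals. The entry LOC_Os01g27340;LOC_Os01g27360, which merges 2 loci annotated GSTF1, went from 17.5, 17.1 and 14.5 CPM to 7.95, 7.95 and 5.91 in the sensitive line. It went from 16.7, 17.6 and 17.1 to 7.89, 7.05 and 8.94 CPM in the tolerant line, so that all night heat values lay below all controls, at log2 fold changes of -1.17 ± 0.14 and -1.11 ± 0.14 (edgeR adjusted p = 2.85e-05 and 3.82e-05). The remaining phi call was LOC_Os03g04240, which stayed at or below 1.18 CPM in all libraries and was called lower in the tolerant line (edgeR adjusted p = 0.0147) and not in the sensitive line (adjusted p = 0.998), and the call was lost with the groups of the comparison only (adjusted p = 0.0542); it was chosen after its values were seen.

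Tau genes were split. Of 20 tested members, 4 were called higher and 3 lower in the sensitive line, and 3 higher and 5 lower in the tolerant line. The highest of them, LOC_Os07g28480, annotated GSTU1, had 38.3, 38.4 and 33.8 CPM in the sensitive control and 23.0, 21.4 and 21.7 under night heat. In the tolerant line 41.6, 40.5 and 41.7 CPM in control stood against 17.8, 19.5 and 15.6. It fell by 0.74 ± 0.09 on the log2 scale in the sensitive line and by 1.23 ± 0.09 in the tolerant line (edgeR adjusted p = 3.76e-05 and 3.86e-07), and with library totals the sensitive change was -0.33. LOC_Os10g22070, annotated GSTU6, moved the opposite way, from 11.9, 13.2 and 12.7 CPM to 18.5, 17.98 and 15.1 in the sensitive line. Its tolerant libraries went from 6.87, 6.73 and 7.63 CPM to 21.4, 21.6 and 21.95. The log2 fold changes were 0.45 ± 0.10 (adjusted p = 0.00341, edgeR) and 1.61 ± 0.10 (adjusted p = 7.61e-08), and the groups did not overlap within either line; with library totals the sensitive change was 0.87.

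Of the other tau members, 1 abundant entry rose and most calls lay at low levels. LOC_Os03g57200, another GSTU1 annotation and chosen after its values were seen, fell by 0.67 ± 0.15 and 0.82 ± 0.15 on the log2 scale (edgeR adjusted p = 0.005 and 0.00111), but in the sensitive line it was at -0.25 with library totals (adjusted p = 0.221). The entry LOC_Os10g38470;LOC_Os10g38489;LOC_Os10g38580 merges 3 loci, so its reads cannot be split, and it held 24.1, 22.9 and 27.4 CPM in the sensitive control and 42.6, 47.0 and 36.4 under night heat. The tolerant libraries held 24.1, 29.8 and 26.1 CPM and 37.5, 37.2 and 39.7, with log2 fold changes of 0.76 ± 0.11 and 0.52 ± 0.11 (edgeR adjusted p = 0.000168 and 0.00268). LOC_Os07g07320, another GSTU6 annotation, had the largest fitted rise among members with at least 1 CPM in a group in both lines, but from almost no signal. It had 0.301, 0.184 and 0.105 CPM in the sensitive control and 1.04, 1.18 and 1.91 under night heat, and 0.191, 0.533 and 0.106 and then 1.30, 1.59 and 2.11 in the tolerant line. The fitted log2 fold changes were 2.80 ± 0.59 and 2.58 ± 0.58 (edgeR adjusted p = 0.0029 and 0.00393). LOC_Os10g38340 rose in the sensitive line, from 0.577, 0.184 and 0.341 CPM to 0.889, 1.48 and 0.847 (log2 fold change 1.54 ± 0.45, edgeR adjusted p = 0.0204), and had 1.03, 1.26 and 0.768 CPM in the tolerant control against 0.706, 0.559 and 0.526 (-0.77 ± 0.44, adjusted p = 0.211). Its sensitive call was lost without control replicate 2, control replicate 3 or night heat replicate 2 of that line, at adjusted p = 0.0644, 0.0586 and 0.0953. LOC_Os10g38140, annotated U17, fell in the tolerant line from 1.74, 2.38 and 2.14 to 0.973, 0.722 and 1.18 CPM (-1.12 ± 0.29, adjusted p = 0.00981), and its sensitive libraries at 1.55, 1.32 and 2.15 against 0.850, 1.27 and 1.17 CPM did not pass (adjusted p = 0.132).

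**Figure D4:**
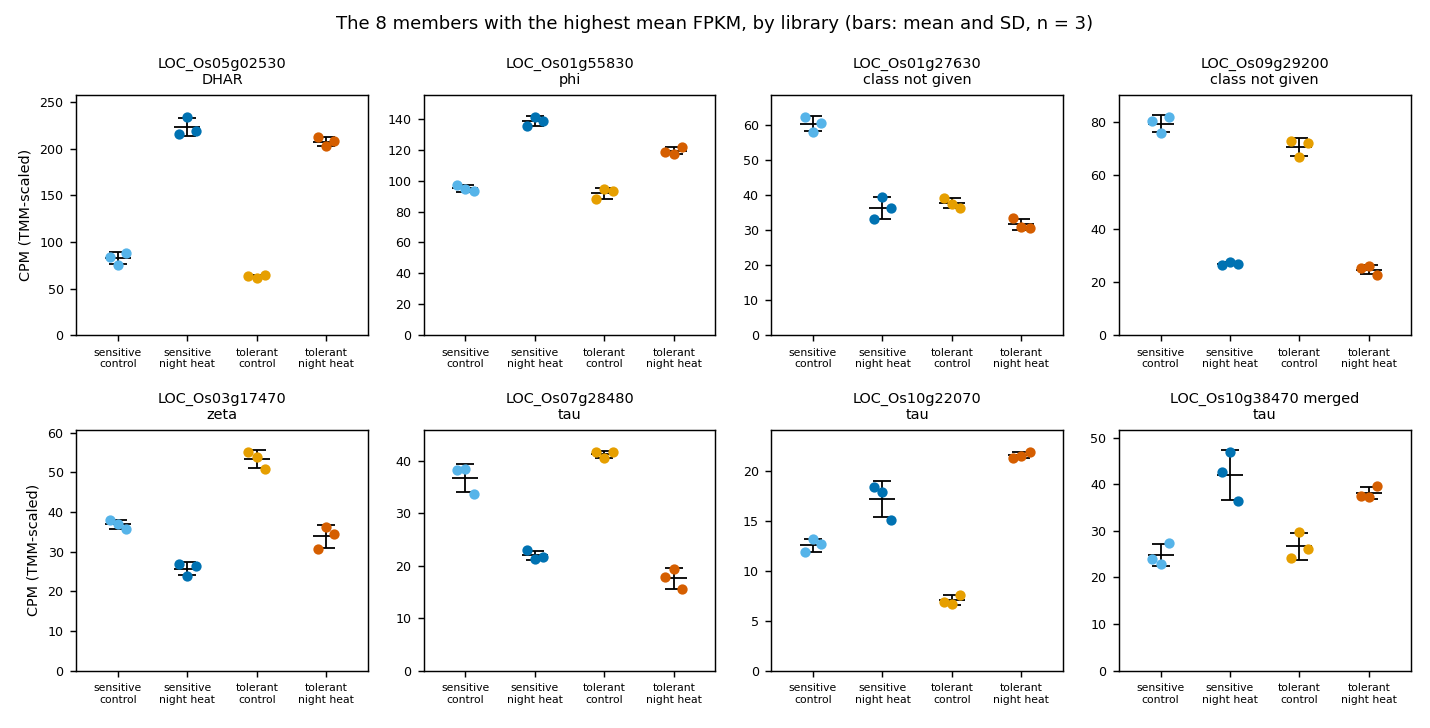
TMM-scaled CPM in each library of the 8 members with the highest mean FPKM; points are libraries, and bars give the mean and SD of 3. DHAR1, GSTF2, LOC_Os10g22070 and the merged tau entry are higher under night heat, and the other 4 are lower in both lines; with library totals LOC_Os01g27630 turns to 0.06 in the tolerant line.

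Each line had 3 risers and 1 faller among the 8 tested genes annotated theta, and the risers were all annotated T3. The T2 and T3 genes carried no enzyme number, while the faller LOC_Os11g37730 carried EC 2.5.1.18. LOC_Os06g32944 had 1.49, 1.05 and 1.0102 CPM in the sensitive control and 2.56, 3.97 and 3.53 under night heat, and 0.846, 1.30 and 1.098 against 4.65, 4.86 and 3.44 in the tolerant line. Its log2 fold changes were 1.5 ± 0.26 and 2.00 ± 0.26 (edgeR adjusted p = 0.000646 and 6.3e-05), without overlap. LOC_Os05g13960 went from 2.50, 1.46 and 1.76 CPM to 6.41, 4.41 and 4.72 in the sensitive line and from 2.35, 1.75 and 1.901 to 3.01, 4.54 and 3.12 in the tolerant line. It rose by 1.44 ± 0.25 and 0.83 ± 0.25 on the log2 scale (edgeR adjusted p = 0.000807 and 0.0225), and the tolerant call was lost without tolerant control replicate 2 or 3 or night heat replicate 2 (adjusted p = 0.0798, 0.0665 and 0.105). A further 2 T3 genes were each called in 1 line: LOC_Os09g14880 in the sensitive line (1.23 ± 0.41, edgeR adjusted p = 0.038) and LOC_Os01g34410 in the tolerant line (1.48 ± 0.39, adjusted p = 0.0113). Their log2 fold changes in the other line were 0.79 ± 0.41 and 0.70 ± 0.39 and did not pass (adjusted p = 0.165 and 0.195), and the call of LOC_Os09g14880 was lost without any 1 of 7 libraries, at adjusted p of up to 0.101. Which line was called depended on the setting: on log2(FPKM + 1) both passed in the other line too (adjusted p = 0.0203 and 0.0272, limma), and LOC_Os01g34410 also passed there with library totals (1.12, edgeR adjusted p = 0.0355). The T3 gene LOC_Os11g17954, chosen after its values were seen, was not called in either line; 7 of its 12 libraries had no count. The faller was the highest theta gene, LOC_Os11g37730, annotated T1, at 17.2, 13.5 and 15.2 CPM against 9.22, 9.09 and 11.7 in the sensitive line. At 16.05, 15.99 and 18.7 against 11.6, 9.61 and 10.7 CPM in the tolerant line, it fell by 0.67 ± 0.13 there and by 0.61 ± 0.13 in the sensitive line (edgeR adjusted p = 0.00178 and 0.0035). The sensitive fall did not pass with library totals (log2 fold change -0.20, adjusted p = 0.243).

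All 3 genes annotated zeta fell in both lines by the TMM-scaled test. Of these, LOC_Os02g35590 and LOC_Os11g14040 carry the enzyme number EC 5.2.1.2, but LOC_Os03g17470 carries EC 2.5.1.18, so its class is uncertain. LOC_Os03g17470, whose annotation carries both the names IN2-1 homolog B and GSTZ5 (IN2-1 was named in maize as a gene induced by herbicide safeners), had 37.9, 37.0 and 35.7 CPM in the sensitive control and 26.9, 23.9 and 26.4 under night heat. In the tolerant line 55.1, 54.0 and 50.9 CPM in control stood against 30.7, 36.3 and 34.5. The log2 fold changes were -0.52 ± 0.08 and -0.66 ± 0.08 (edgeR adjusted p = 0.000266 and 3.33e-05), without overlap. LOC_Os02g35590, chosen after its values were seen, had 22.7, 21.9 and 18.5 CPM in the sensitive control against 13.5, 12.5 and 14.1, and 19.2, 17.5 and 20.6 in the tolerant control against 13.8, 13.6 and 13.99. It fell by 0.66 ± 0.10 and 0.47 ± 0.10 (edgeR adjusted p = 0.000224 and 0.00231), and the third gene, LOC_Os11g14040, likewise chosen afterwards, did not exceed 1.11 CPM. Its sensitive call (-1.70 ± 0.57, adjusted p = 0.0374, edgeR) was lost without any 1 of 9 libraries, at adjusted p of up to 0.114, and its tolerant change was -2.45 ± 0.58 (adjusted p = 0.00586). With library totals the zeta falls were smaller: LOC_Os03g17470 was at -0.10 (adjusted p = 0.484) in the sensitive line, and LOC_Os02g35590 was at -0.24 and -0.15 (adjusted p = 0.0908 and 0.29).

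Both single-gene kinds with signal rose. LOC_Os04g35560, named TCHQD for its likeness to a bacterial dehalogenase, had 7.22, 7.96 and 8.02 CPM in the sensitive control and 13.5, 12.8 and 12.9 under night heat, and 11.2, 10.9 and 9.59 and then 13.9, 12.9 and 16.5 in the tolerant line. Its log2 fold changes were 0.76 ± 0.11 and 0.45 ± 0.11 (edgeR adjusted p = 0.000212 and 0.00749), without overlap in either line. LOC_Os03g50130, annotated as the membrane-bound microsomal glutathione S-transferase 3, which belongs to a protein family unrelated in fold to the soluble enzymes, had 5.94, 6.40 and 6.87 CPM in the sensitive control and 13.6, 11.5 and 9.26 under night heat. Its tolerant libraries were less even, at 5.53, 7.41 and 6.73 CPM in control and 16.2, 15.97 and 8.41 under night heat. It rose by 0.84 ± 0.23 and 1.05 ± 0.23 (edgeR adjusted p = 0.0135 and 0.00343), and the sensitive call was lost without sensitive night heat replicate 1 (adjusted p = 0.0587).

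Of the 16 tested genes for which no class was given, 1 rose and 5 fell in each line. The deepest fall among the 7 members of at least 10 FPKM was in LOC_Os09g29200, annotated GST 23, on chromosome 9. It had 80.5, 75.8 and 82.0 CPM in the sensitive control and 26.5, 27.4 and 26.5 under night heat, and in the tolerant line 73.1, 66.9 and 71.9 against 25.3, 25.97 and 22.7. That is a log2 fold change of -1.57 ± 0.07 in the sensitive and -1.52 ± 0.07 in the tolerant line (edgeR adjusted p = 8.07e-09 and 6.32e-09), and the difference between the lines of 0.05 ± 0.10 did not pass (adjusted p = 0.912). LOC_Os01g72170, which carries the same annotation, rose instead, from 3.33, 4.49 and 4.83 CPM to 7.22, 6.58 and 5.55 in the sensitive line and from 3.39, 3.82 and 4.26 to 7.77, 10.3 and 11.1 in the tolerant line. Its log2 fold changes were 0.61 ± 0.18 and 1.35 ± 0.19 (edgeR adjusted p = 0.0224 and 0.000105), and the sensitive call was lost without sensitive control replicate 1 or night heat replicate 1 or 2 (adjusted p = 0.0853, 0.0839 and 0.0584).

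Another faller of that group, LOC_Os01g27630, also differed between the lines and is described with them. LOC_Os01g27210, annotated glutathione S-transferase 4, had 6.34, 4.72 and 4.33 CPM in the sensitive control and 2.18, 2.47 and 1.77 under night heat, and 4.52, 4.33 and 3.26 against 2.16, 1.92 and 2.196 in the tolerant line. It fell by 1.26 ± 0.21 and 0.95 ± 0.20 on the log2 scale (edgeR adjusted p = 0.000449 and 0.0031), without overlap. The neighbours LOC_Os12g10730 and LOC_Os12g10720 on chromosome 12 fell together, by 0.99 ± 0.13 and 0.66 ± 0.10 in the sensitive line (edgeR adjusted p = 0.000102 and 0.000288) and by 0.76 ± 0.13 and 0.41 ± 0.10 in the tolerant line (adjusted p = 0.000744 and 0.00735). Both name no class in their descriptions but carry EC 5.2.1.2, as do the zeta genes LOC_Os02g35590 and LOC_Os11g14040. For LOC_Os12g10720, chosen after its values were seen, the change was -0.25 and -0.09 with library totals and did not pass (adjusted p = 0.122 and 0.585).

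Between the lines without stress, 2 members were higher and 4 lower in the tolerant line, out of 59 tested, where 5.42% of all tested loci were called, 2.53% higher and 2.89% lower. These comparisons share their control libraries with the night heat comparisons above. LOC_Os10g22070 differed most, at 7.08 ± 0.483 CPM in the tolerant and 12.6 ± 0.657 in the sensitive control (log2 difference -0.83 ± 0.10, edgeR adjusted p = 0.000417). LOC_Os01g27630, the third most abundant gene of the family, had 39.2, 37.4 and 36.3 CPM in the tolerant control and 62.4, 58.1 and 60.6 in the sensitive control (-0.68 ± 0.08, adjusted p = 0.000313). DHAR1 was lower as well, at 63.3 ± 1.62 against 82.8 ± 6.30 CPM (-0.39 ± 0.06, adjusted p = 0.00336), as was the phi gene LOC_Os03g04260, annotated F11, at 3.88 ± 0.265 against 5.98 ± 0.512 CPM (-0.62 ± 0.14, adjusted p = 0.0194). Higher in the tolerant control were the zeta gene LOC_Os03g17470, at 53.3 ± 2.22 against 36.9 ± 1.14 CPM (0.53 ± 0.08, adjusted p = 0.00199), and LOC_Os04g35560, at 10.6 ± 0.858 against 7.73 ± 0.444 CPM (0.45 ± 0.11, adjusted p = 0.0356). The TCHQD call was lost without any 1 of 9 libraries, at adjusted p of up to 0.112, and that of LOC_Os03g04260 without any 1 of 4, at up to 0.0725. With library totals DHAR1 (-0.28, adjusted p = 0.0622) and LOC_Os03g04260 (-0.52, adjusted p = 0.0634) did not pass.

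Under night heat the lines differed in 2 of 59 members, 1 in each direction, beside 3.4% of all tested loci, 1.71% higher and 1.69% lower. The zeta gene LOC_Os03g17470 was again higher in the tolerant line, at 33.8 ± 2.84 against 25.7 ± 1.59 CPM (log2 difference 0.40 ± 0.08, edgeR adjusted p = 0.0154), which was lost without sensitive night heat replicate 2 or tolerant night heat replicate 2 or 3 (adjusted p = 0.0749, 0.0687 and 0.0604). The phi gene LOC_Os01g55830 was lower, at 119 ± 2.30 against 138 ± 3.15 CPM (-0.22 ± 0.05, adjusted p = 0.0404), and this was lost without any 1 of 10 libraries, at adjusted p of up to 0.148. DHAR1 had 208 ± 5.04 CPM in the tolerant and 223 ± 9.84 in the sensitive line under night heat (-0.10 ± 0.06, adjusted p = 0.535).

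The response to night heat itself differed between the lines in 2 of 59 members, both with a higher change in the tolerant line, where 2.61% of all tested loci were called, 1.27% higher and 1.34% lower. For LOC_Os10g22070 the tolerant line started lower, with all 3 controls between 6.73 and 7.63 CPM against 11.9 to 13.2, and ended higher, at 21.4 to 21.95 against 15.1 to 18.5. The difference of the log2 fold changes was 1.16 ± 0.14 (edgeR adjusted p = 0.000623), and it passed in every alternative run. For LOC_Os01g27630 the sensitive line fell from 62.4, 58.1 and 60.6 CPM to 33.1, 39.5 and 36.4, and the tolerant line went from 39.2, 37.4 and 36.3 to 33.4, 30.9 and 30.6. The night heat changes were -0.73 ± 0.08 and -0.25 ± 0.08 (edgeR adjusted p = 1.23e-05 and 0.0238) and differed by 0.48 ± 0.11 (adjusted p = 0.0351). This difference was lost without any 1 of 11 libraries, at adjusted p of up to 0.0952, and the tolerant change turned to 0.06 with library totals. The tolerant call was lost without any 1 of 4 libraries, at adjusted p of up to 0.0818. LOC_Os07g28480 fell more in the tolerant line, and the difference of -0.49 ± 0.13 did not pass (edgeR adjusted p = 0.0658), though it did on log2(FPKM + 1) (-0.54, limma adjusted p = 0.00765). The opposite-looking pair of LOC_Os10g38340, at 1.54 and -0.77, differed by -2.31 ± 0.63 and did not pass either (adjusted p = 0.0835).

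The one genome build in the submitters' processing notes is mm10, a mouse build, although the identifiers are those of rice, so the build behind the coordinates of the table is unknown. By these coordinates members lay on all 12 chromosomes, with 23 on chromosome 10, 20 on chromosome 1 and 9 on chromosome 3. Runs in which each start lay within 50 kb of the next held 37 members in 7 runs. The longest was on chromosome 10, from 20551209 to 20646973, with 13 members, of which 8 could be tested and 4 had no count. The 5 members of a run just before it, from 20431775 to 20489894, were all tested. In these neighbouring runs mean levels ranged from no signal to 7.80 FPKM in the merged entry LOC_Os10g38470;LOC_Os10g38489;LOC_Os10g38580, and the members did not move together. In the long run 1 member rose and 1 fell in each line, and in the shorter one LOC_Os10g38340 rose in the sensitive line and LOC_Os10g38140 fell in the tolerant line. The fallers of the long run were LOC_Os10g38700;LOC_Os10g38710 in the sensitive line (-0.39 ± 0.13, edgeR adjusted p = 0.0358) and LOC_Os10g38590, annotated OsGSTU9, in the tolerant line (-0.61 ± 0.21, adjusted p = 0.0411), both chosen after their values were seen. The first turned to 0.03 with library totals and was lost without any 1 of 5 libraries, at adjusted p of up to 0.134, and the second was lost without any 1 of 8 libraries, at adjusted p of up to 0.151.

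**Figure D5:**
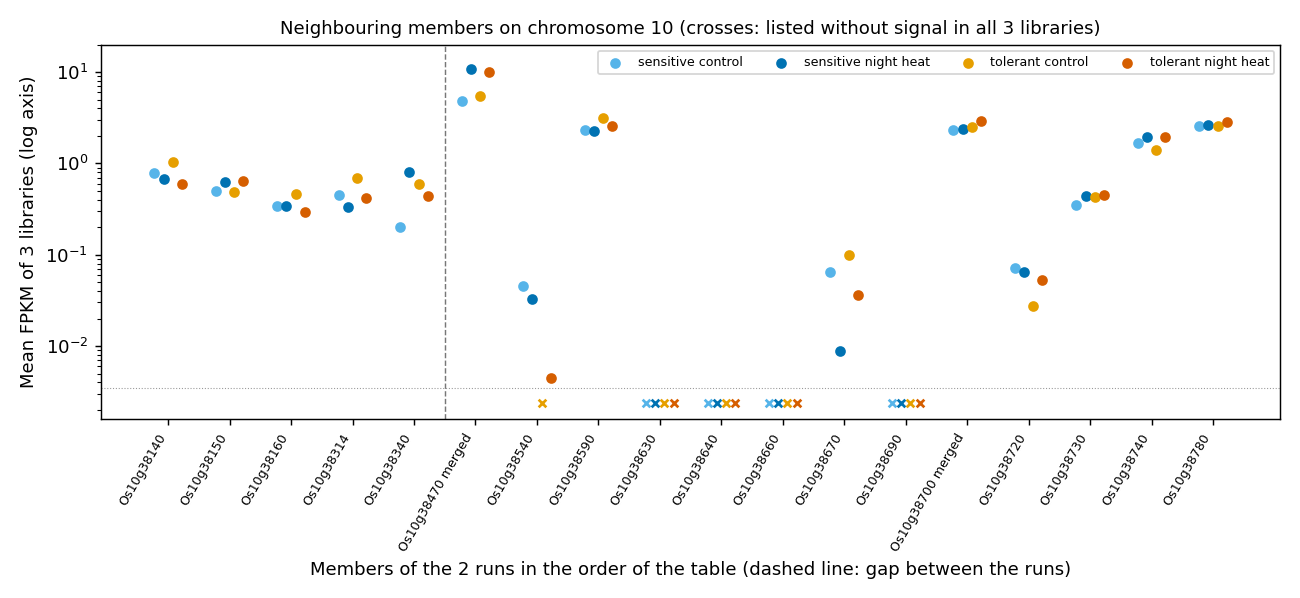
Mean FPKM of 3 libraries on a log axis for the 18 members of the 2 neighbouring runs on chromosome 10, in the order of the table; crosses mark groups listed without signal. Levels differ widely between neighbours, the merged entry at the start of the long run is highest, and 4 members of that run have no signal in any group.

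The runs on other chromosomes held 15 tested members, with 1 riser and 4 fallers in the sensitive line and 1 and 5 in the tolerant line. Both tested members of the run from 15170345 to 15294415 on chromosome 1, LOC_Os01g27210 and the merged GSTF1 entry, fell in both lines, as did both members of the pair from 5756436 to 5763724 on chromosome 12. In the run of 6 genes from 41839949 to 41854883 on chromosome 1, LOC_Os01g72170 was the single gene called, and in the run of 4 phi genes from 1938202 to 1955969 on chromosome 3 the single call was LOC_Os03g04240 in the tolerant line. Over all runs 28 members were tested, with 3 risers and 5 fallers in the sensitive line and 2 and 7 in the tolerant line. Outside the runs 31 were tested, of which 9 rose and 8 fell, and 9 rose and 9 fell. Whether runs and single genes differ was not tested.

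The 17 members that were not tested had no count in any library (9 genes) or a mean of at most 5.42 counts (8 genes). Among the silent ones was the single gene annotated lambda, LOC_Os10g38660. A low call rests on few counts: LOC_Os03g44170, a tau gene annotated GSTU1 and chosen after its values were seen, had 8, 19 and 13 counts in the tolerant control and 0 in all 3 night heat libraries, so no fold change is given. Its sensitive libraries held 11, 4 and 8 counts in control and 2, 12 and 20 under night heat, which overlapped.

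The pathway around the family was examined in 56 genes, of which 46 could be tested. They were annotated as making, recycling or using glutathione, carrying its conjugates, or reducing dehydroascorbate or monodehydroascorbate. The test called 9 higher and 10 lower in the sensitive line and 9 higher and 13 lower in the tolerant line, beside 32.1% and 33.2% of all tested loci. Of the 3 glutathione synthetase genes, which join the last amino acid of the tripeptide, LOC_Os12g34380 fell from 15.6, 15.5 and 12.9 CPM to 6.20, 6.88 and 5.85 in the sensitive line and from 11.5, 13.1 and 13.7 to 8.31, 7.72 and 7.07 in the tolerant line. Its log2 fold changes were -1.22 ± 0.12 and -0.73 ± 0.12 (edgeR adjusted p = 7.52e-06 and 0.000417). The highest synthetase gene, LOC_Os11g42350, was not called (-0.23 ± 0.10 and -0.16 ± 0.10, adjusted p = 0.103 and 0.249), and LOC_Os12g16200, at most 1.48 CPM, was called in the tolerant line (1.5 ± 0.54, adjusted p = 0.0482) and not in the sensitive line (1.44 ± 0.53, adjusted p = 0.0561), where it passed with library totals (adjusted p = 0.0151). Neither of the 2 glutathione reductase genes, which regenerate the reduced form, was called; the higher one, LOC_Os02g56850, was at -0.08 ± 0.12 and -0.32 ± 0.12 (edgeR adjusted p = 0.655 and 0.0596). None of the 3 turnover genes was called, including LOC_Os01g05810 at 0.02 ± 0.09 and -0.08 ± 0.09.

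Genes annotated as enzymes that use glutathione moved both ways. Of 4 glutathione peroxidase genes, 3 were called lower in the sensitive line, and 1 higher and 2 lower in the tolerant line. The highest, LOC_Os04g46960, went from 81.2, 73.7 and 80.6 CPM to 50.5, 53.2 and 54.5 in the sensitive line and from 90.0, 96.2 and 90.2 to 41.3, 42.4 and 41.0 in the tolerant line. Its changes of -0.57 ± 0.06 and -1.15 ± 0.06 (edgeR adjusted p = 1.49e-05 and 2.37e-08) differed between the lines by -0.57 ± 0.09 (adjusted p = 0.00368). LOC_Os02g44500 fell by 0.66 ± 0.09 and 0.74 ± 0.09 (edgeR adjusted p = 0.000101 and 3.31e-05). With library totals the sensitive changes of LOC_Os04g46960 and LOC_Os02g44500 were -0.16 and -0.25 and did not pass (adjusted p = 0.153 and 0.0755), while the difference between the lines for LOC_Os04g46960 did (-0.67, adjusted p = 0.0102). The enzymes of the glyoxalase list clear the toxic sugar by-product methylglyoxal. Of its 5 tested genes, 1 was called higher and 2 lower in the sensitive line, and 1 higher and 1 lower in the tolerant line. The riser, LOC_Os03g16940, went from 25.5, 20.6 and 22.4 CPM to 90.4, 84.5 and 84.6 in the sensitive line. In the tolerant line it went from 28.1, 28.9 and 25.8 to 78.3, 86.8 and 73.7 CPM. That is a log2 fold change of 1.92 ± 0.09 and 1.53 ± 0.09 (edgeR adjusted p = 1.25e-08 and 5.57e-08). Glutaredoxins, small proteins that reduce disulfides with glutathione, had 5 risers and 3 fallers among 17 tested genes in the sensitive line and 3 and 5 in the tolerant line. Their highest gene, LOC_Os04g42930, annotated glutaredoxin-C6, fell by 1.16 ± 0.06 and 1.55 ± 0.06 (edgeR adjusted p = 3.5e-08 and 2.03e-09). The called glutaredoxin with the largest change in the sensitive line, LOC_Os11g43520, lay near the floor. It had 0 CPM in every sensitive control library and 0.0782, 0.178 and 0 under night heat, so the groups overlapped and no fold change is given. Its tolerant libraries held 0.0477, 0.0464 and 0.142 CPM in control and 1.06, 0.906 and 0.469 under night heat.

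The remaining lists were the ABC transporters that carry conjugates into the vacuole and the dehydroascorbate and monodehydroascorbate reductases outside the family. Of 8 transporter genes, 3 were called higher and 1 lower in the sensitive line, and 3 higher and 3 lower in the tolerant line. LOC_Os05g10730 rose from 4.31, 5.64 and 4.71 CPM to 11.7, 15.8 and 10.6 in the sensitive line and from 6.81, 7.89 and 7.58 to 17.3, 16.5 and 18.2 in the tolerant line (log2 fold changes 1.38 ± 0.15 and 1.22 ± 0.15, edgeR adjusted p = 2.11e-05 and 4.5e-05). LOC_Os06g08560 fell by 0.97 ± 0.12 and 1.48 ± 0.12 (edgeR adjusted p = 3.62e-05 and 7.97e-07). The highest transporter gene, LOC_Os03g04920, had 399, 394 and 404 CPM in the sensitive control against 409.6, 431 and 424 (0.08 ± 0.05, adjusted p = 0.225), and in the tolerant line it went from 483, 476 and 460.5 to 420.5, 384 and 423 CPM (-0.21 ± 0.05, edgeR adjusted p = 0.00351). Its direction depended on scaling: with library totals the changes were 0.50 (adjusted p = 0.00011) and 0.10 (adjusted p = 0.288). Among 4 tested reductase genes the single call was LOC_Os08g44330;LOC_Os08g44340, an entry that merges a cytochrome P450 annotation with a monodehydroascorbate reductase, at -0.49 ± 0.07 in the tolerant line (edgeR adjusted p = 0.000175), which was -0.18 with library totals and did not pass (adjusted p = 0.171).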

How the data were processed

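The authors deposited, in 1 table for 12 libraries of ribosomal RNA-depleted total RNA, counts and FPKM values per locus, named so per the file headers. Tools named in the submitters' processing notes are HISAT2 2.2.1, cutadapt 1.9, edgeR, DESeq2 and StringTie 2.1.6. The one build these notes name is mm10, a mouse build, while the rice identifiers carry an MSU 7.0 tag; this mismatch could not be settled. No source used here gives the strand setting or how reads shared by near copies were counted, so neighbouring copies and antisense partners are uncertain. None of the 80 member loci matched the RefSeq gene table.

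The test was edgeR's quasi-likelihood test (version 4.0.16, R 4.3.3) on counts after filterByExpr and TMM scaling, with all 4 groups in 1 fit (8 residual degrees of freedom), two-sided, with Benjamini-Hochberg adjustment over 33281 loci and a threshold of 0.05. The scripts were checked on simulated data in which few loci changed, in 1 group and in both directions. That check does not cover how the results depend on scaling. Alternatives were other scalings and filters, DESeq2 1.42.0, limma 3.58.1 on log2(FPKM + 1) or log2(FPKM + 0.1), a replicate block, fits of single comparisons, counts summed per gene name and leaving out each library. An FPKM of 0.0001 was read as no signal. The SE of an edgeR log2 fold change was derived as its absolute value divided by the square root of the F statistic of its test. It is therefore approximate, above all for members with few counts.

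Genes were named by rule: in each comparison the called members with the largest change among those of at least 1 CPM in a group and without overlap (up to 10 for night heat, 5 between lines, 8 for the interaction), the 8 highest members, the highest of each class, and for pathway lists the highest gene and the largest called change. The pathway term glutathione hydrolase was matched as a whole word. Sequences, promoter motifs and protein identity were not analysed here. Members and lists were chosen with earlier results of these data known.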

Additional observations from a re-analysis of the deposited data

Results flagged for a closer look

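In 2 members the response to night heat differed between the lines by the test of the difference itself. For the tau gene LOC_Os10g22070 the log2 fold change was 1.16 higher in the tolerant line (edgeR adjusted p = 0.000623). For LOC_Os01g27630 it was 0.48 higher (edgeR adjusted p = 0.0351). Both genes also differed between the lines in control, and these comparisons share libraries.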

How the results depend on the processing

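Direction depended on scaling in 2 members. The fall of LOC_Os10g38700;LOC_Os10g38710 in the sensitive line turned to 0.028 with library totals, 0.023 on log2(FPKM + 1) with or without a filter and 0.033 on log2(FPKM + 0.1), and that of LOC_Os01g27630 in the tolerant line to 0.063, 0.078 and 0.080; the cause was not tested. For night heat in the sensitive line, 6 members were called lower with library totals, 7 on log2(FPKM + 1), 7 on log2(FPKM + 0.1) and 8 without a filter, and 19 were called higher in each of the latter settings. Over all loci 39.5%, 39.4% and 28.1% were called higher in these FPKM settings, and 8.38%, 8.24% and 5.87% lower. For the tolerant line 20, 20 and 21 were called higher and 10, 9 and 9 lower in the 3 FPKM settings. There 36.5% of all loci were called higher and 10.9% lower on log2(FPKM + 1), 35.7% and 10.7% on log2(FPKM + 0.1), and 26.3% and 7.71% without a filter. The split of all loci thus moved towards rises too. Leaving out 1 library gave 20 to 25 calls in the sensitive line (9 to 13 higher, 11 to 13 lower) and 25 to 27 in the tolerant line (10 to 12 higher, 14 to 16 lower). The same runs called 26.1% to 30.8% of all loci in the sensitive line and 27.3% to 32.5% in the tolerant line.

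Between the lines in control, 4 were called higher with DESeq2, 1 with the replicate block and 1 with the groups of the comparison only, and 2 lower with library totals. Over all loci these shares were 4.1%, 1.95% and 1.4% higher, and 1.21% lower. Leaving out 1 library gave 4 to 6 calls, 1 to 2 higher and 3 to 4 lower, beside 3.2% to 4.82% of all loci called. Under night heat the line difference was called in 0 members with library totals (0 higher, 0 lower), 1 with RLE factors (0 lower), 6 with DESeq2 (3 higher, 3 lower) and 1 with no filter (0 lower). It was called in 6 in each FPKM setting (2 higher, 4 lower), 1 with the replicate block (0 lower) and 0 with the groups of the comparison only (0 higher, 0 lower). Over all loci the share called was 2.09% with library totals, 3.31% with RLE factors, 5.22% with DESeq2 and 2.64% with no filter. It was 3.95% to 5.81% in the FPKM settings, 2.59% with the replicate block and 3.17% with the groups of the comparison only. Leaving out 1 library gave 0 to 2 calls, 0 to 1 higher and 0 to 1 lower, beside 1.96% to 3.1% of all loci. The interaction was called in 1 member with library totals (1 higher), 6 with DESeq2 (4 lower) and 4 on log2(FPKM + 1) (1 higher, 3 lower), beside 1.97%, 4.63% and 4.42% of all loci. In the other FPKM settings 1 was called higher and 2 lower, beside 3.9% of all loci on log2(FPKM + 0.1) and 2.81% without a filter. The replicate block called 1 (1 higher), beside 1.89% of all loci. Leaving out 1 library gave 1 to 2 calls, 1 to 2 higher and 0 to 1 lower, beside 1.81% to 2.33% of all loci.

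Deviations of libraries with the same replicate number were correlated at -0.012 to 0.029, and those with different numbers at -0.024 to 0.020. Within the sensitive line, same-number pairs were positive and the others negative, which did not hold in the other comparisons. Whether the number marks a shared batch is not known. The replicate block ended 4 calls: LOC_Os11g14040 in the sensitive line (edgeR adjusted p = 0.0549), LOC_Os04g35560 between control lines (0.0703), LOC_Os01g55830 between lines under night heat (0.0849) and the interaction of LOC_Os01g27630 (0.0785). Members under about 1 CPM rest on few counts.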
